A study of Rattus norvegicus with 10 samples.

Results

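Macroautophagy genes were followed in RCS cells, a line derived from a rat chondrosarcoma, with and without ARSL, the sulfatase arylsulfatase L. The set comprised genes of autophagosome initiation, nucleation and expansion, conjugation and cargo selection, plus the transcription factors Tfeb and Tfe3. Members were taken from the deposited table by gene symbol, ignoring case, and 34 of 42 listed symbols had a row among 10184 genes. Retreg1 and its older name Fam134b were both listed, so the 42 symbols stood for 41 genes. No row carried the symbol Atg13, Gabarapl2, Atg4a, Atg4c, Calcoco1, Retreg1, Fam134b or Tfe3, and these were not analysed here. All 34 members with a row passed the filter on low values, which asked for a mean of about 10.7 normalised reads, 1 log2-like unit over the table's minimum.

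The groups were 5 libraries of unmodified RCS cells (WT) and 5 of RCS cells with ARSL knocked out (KO), all harvested 48 h after seeding and given no treatment. Both were grown in DMEM with serum, antibiotics and glutamine. The labels name biological replicates but do not say whether the KO cells were 1 clone or how the cultures were separated, so p-values measure the spread between these libraries. An effect of the knockout and another difference between the lines cannot be told apart. In bulk RNA, fewer cells expressing a gene and less of its RNA per cell cannot be told apart either.

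Autophagy encloses cytoplasm in a double membrane and delivers it to lysosomes. The ULK1 kinase complex starts the process, a class III phosphatidylinositol 3-kinase complex built on Beclin 1 marks the growing membrane with phosphatidylinositol 3-phosphate, and WIPI and ATG2 proteins extend it. Ubiquitin-like conjugation then acts on the growing membrane, and receptors such as p62 tether cargo there. In growth plate chondrocytes autophagy is known to take part in handling secreted collagen.

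Recovered reads came to between 2065594 and 2591819 per library over all 10184 genes of the deposited table. Of 15 chondrocyte markers, 13 had rows, while Sox9 and Snorc had none. Differences were below 0 for 10 of the 13. Of the 13, 2 were called lower in KO and 0 higher, where 1.14% of all tested genes were called. Col11a1, a chain of cartilage collagen, fell from a mean of 10436 normalised reads in WT to 4392 in KO (limma adjusted p = 0.0207), a call lost without ARSL KO 1, 2, 3 or 5, at up to 0.0834. Ucma, a cartilage matrix protein, fell from 50.2 to 7.12 (limma adjusted p = 0.0176), a call lost without ARSL KO 3 or 5, at up to 0.0625. Without WT 3, WT 4 and ARSL KO 4 together, both were called lower (limma adjusted p = 1.45e-06 for Col11a1 and 0.00173 for Ucma). Acan, the proteoglycan aggrecan, averaged 3886 in WT and 4537 in KO (limma adjusted p = 0.616). The part of these markers in the values of the autophagy genes was not tested. Of markers of other cell types, 0 of 4 endothelial markers had a row, the leukocyte marker Cd68 averaged 4.19 normalised reads in WT and 3.77 in KO, and the epithelial keratin Krt8 averaged 471 and 457. The row for Arsl was not found by symbol, so the genotype was not checked against the targeted gene. WT 3 and WT 4 stood apart on the first principal component over all tested genes, with scores of 28 and 26.8. ARSL KO 4, at 7.9, lay between them and the other libraries, which scored -15 to -3. For 12 of the 13 chondrocyte markers, and for 27.2% of all tested genes, WT 3 and WT 4 both lay above the other WT libraries. Without WT 3, WT 4 and ARSL KO 4, differences were above 0 for 7 of the 13. Their median was then 0.10, against -0.08 over all libraries. In that setting 3 of the 13 were called, as were 3.56% of all tested genes. These were Col11a1 and Ucma, lower, and Col9a2, higher (limma adjusted p = 0.0483 for Col9a2).

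Several autophagy genes had their highest values in WT 3, WT 4 or ARSL KO 4. Map1lc3a, which encodes LC3A, had 254, 260, 522, 534 and 346 normalised reads in WT 1 to 5 and 371, 311, 301, 478 and 296 in KO 1 to 5. WT 3, WT 4 and ARSL KO 4 were its highest values, and the genotypes overlapped. Map1lc3b, which encodes LC3B, had 102, 91.9, 159, 137 and 110 normalised reads in WT and 125, 108, 118, 128 and 88.8 in KO, again with WT 3, WT 4 and ARSL KO 4 highest. Sqstm1, which encodes the receptor p62, had 340, 325, 539, 517 and 439 normalised reads in WT and 379, 357, 383, 404 and 343 in KO. Its highest values were in WT 3 and WT 4, followed by WT 5. Wipi1, a phosphatidylinositol 3-phosphate binding protein, had 84.5, 101, 138, 179 and 90.9 normalised reads in WT and 117, 110, 99.7, 161 and 90.6 in KO. WT 4, ARSL KO 4 and WT 3 were its highest values, and it is given in full here because of them. In the panels of normalised reads per library these 4 genes show the square symbols at or near the top.

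**Figure D1:**
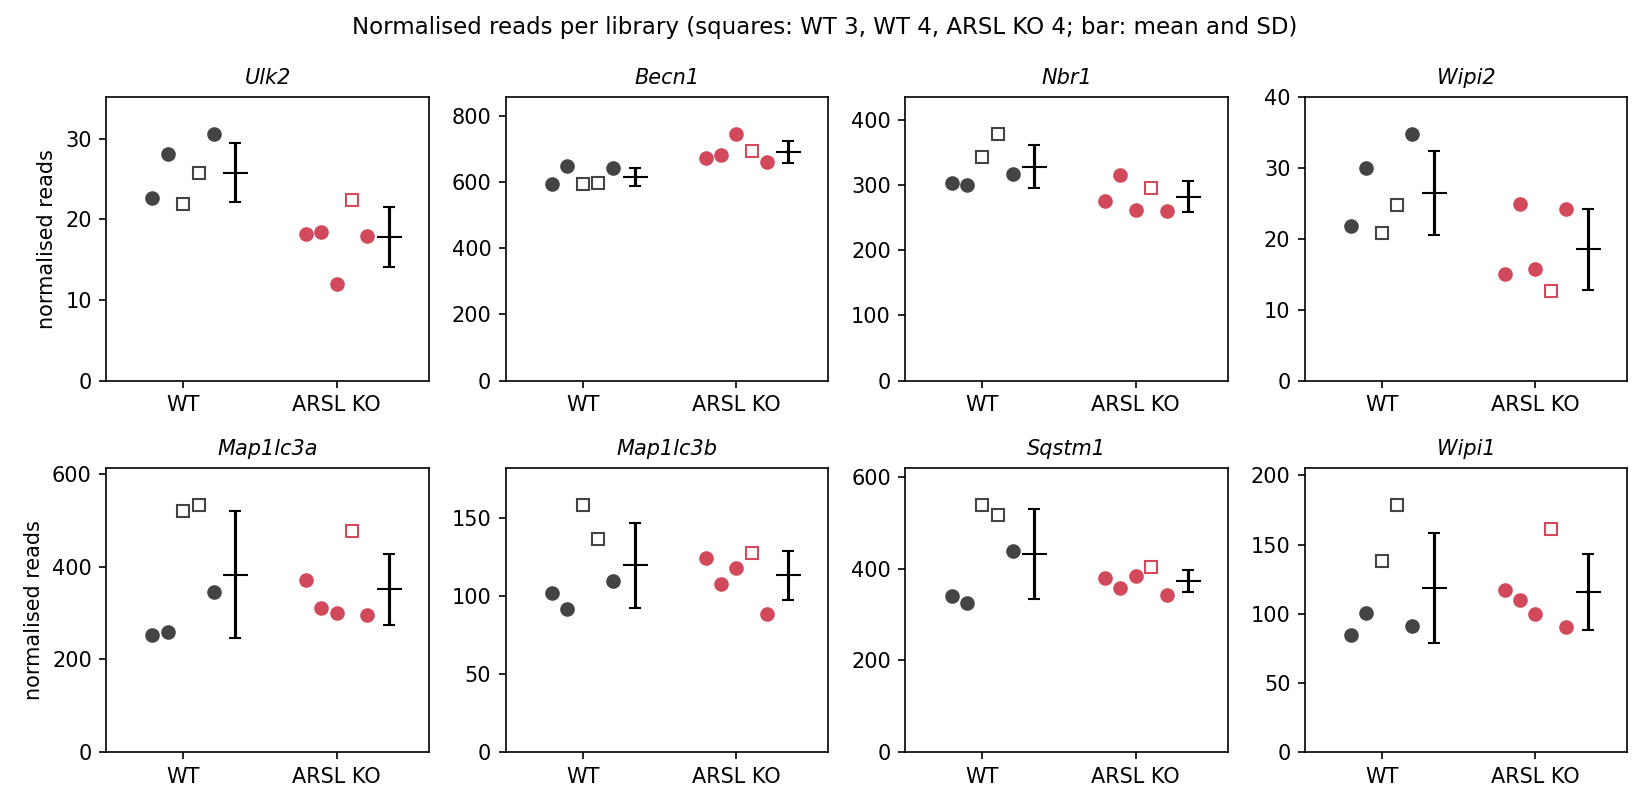
Normalised reads (linear axis from 0) of 8 autophagy genes in each WT (grey) and ARSL KO (red) library; open squares are WT 3, WT 4 and ARSL KO 4, circles the other libraries, and the black bar gives mean and SD of the 5 libraries. Becn1 is the 1 gene shown whose KO libraries, 662 to 747, all lie above the WT libraries, 593 to 649.

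WT 3 and WT 4 both lay above the other 3 WT libraries for 17 of 34 members, 50%, and for 27.2% of all tested genes. They both lay below the others for 2 members, Uvrag and Atg4b, 5.88%, and for 29.0% of all tested genes. ARSL KO 4 was the highest KO library for 5 of those 17, which were Rb1cc1, Wipi1, Map1lc3a, Map1lc3b and Sqstm1. For Pik3r4 and Atg14, also among the 17, it was the lowest KO library. The matching share over all tested genes was not counted, so these 5 are not read as a trait of the members. Uvrag, which encodes a Beclin 1 partner, had 20.8 and 19.1 normalised reads in WT 3 and WT 4, against 47.9, 28.1 and 58.1 in WT 1, 2 and 5. Among 25 lysosomal genes, a list chosen with earlier results known, 23 had WT 3 and WT 4 above the other WT libraries, 92%. The average of gene-centred values in WT 3 and WT 4 was 0.07 and 0.12 over the autophagy genes and 0.521 and 0.513 over the lysosomal genes on the log2-like scale. No test was made of the autophagy genes against the lysosomal ones.

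**Figure D2:**
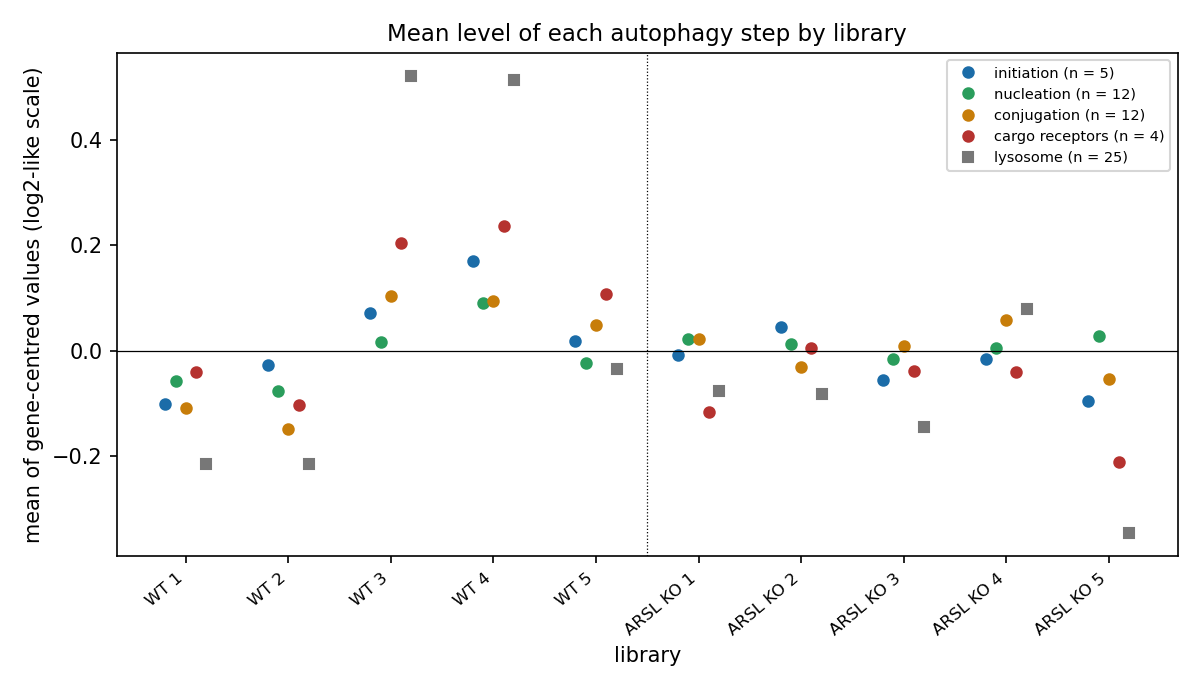
Mean of gene-centred values on the log2-like scale (y) in each library (x) for 4 autophagy steps (circles) and 25 lysosomal genes (grey squares). Cargo receptors reach 0.204 in WT 3 and 0.236 in WT 4, and the lysosomal list 0.521 and 0.513 in the same libraries.

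The sequences before the starts of Sqstm1, Map1lc3b and Wipi1, which were high in WT 3 and WT 4, and of Atg3 and Atg5, which hold the core of the MiT/TFE site there, are printed to show whether the letters of that core are present. TFEB and TFE3 bind lysosomal and autophagy genes at an E-box, whose core CACGTG is its own reverse complement. RefSeq windows on the build GRCr8, 250 bases before to 50 after each start, matched 30 of 34 members by symbol; Atg9a, Becn1, Map1lc3a and Rb1cc1 had no entry. CACGTG lay in a window of 3 of these members, 10% counted by gene, namely Atg3, Atg5 and Atg14. Counted by window, it lay in 6.42% of all 33469 windows, so the 2 shares differ in unit. Of the members, 2 had 2 windows. The longer TCACGTGA, which contains the core, lay in a window of Atg3 and in 0.777% of all windows. The 150 bases before the start are shown 5′ to 3′ on the strand of the gene, with CACGTG in capitals.
Sqstm1 (chr10:35037751-35037900, minus strand): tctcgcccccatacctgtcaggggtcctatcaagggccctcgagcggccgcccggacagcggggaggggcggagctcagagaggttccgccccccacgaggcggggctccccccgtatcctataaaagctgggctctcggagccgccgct
Map1lc3b (chr19:66574445-66574594, plus strand): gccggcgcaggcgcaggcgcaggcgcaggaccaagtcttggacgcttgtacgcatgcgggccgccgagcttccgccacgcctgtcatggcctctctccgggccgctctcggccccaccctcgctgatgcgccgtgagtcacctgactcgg
Wipi1 (chr10:95079294-95079443, minus strand): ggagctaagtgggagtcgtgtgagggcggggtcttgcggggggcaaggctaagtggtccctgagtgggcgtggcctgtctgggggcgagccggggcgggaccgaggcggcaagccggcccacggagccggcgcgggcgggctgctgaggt
Atg3 (chr11:69159281-69159430, minus strand): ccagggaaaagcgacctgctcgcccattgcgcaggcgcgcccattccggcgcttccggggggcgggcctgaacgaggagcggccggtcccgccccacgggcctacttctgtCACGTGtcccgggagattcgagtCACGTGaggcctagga
Atg5 (chr20:49380685-49380834, plus strand): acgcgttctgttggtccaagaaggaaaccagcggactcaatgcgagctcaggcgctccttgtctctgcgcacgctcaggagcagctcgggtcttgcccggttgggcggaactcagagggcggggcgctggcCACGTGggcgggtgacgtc
The matches begin 39 and 16 bases before the start in Atg3 and 19 bases before it in Atg5. The match in Atg14 begins at base 7, counting the start as base 1, outside the bases shown, so its sequence is not printed. WT 3 and WT 4 both lay above the other WT libraries for Atg14, but not for Atg3 or Atg5. Sqstm1, Map1lc3b and Wipi1 had no match in the whole window. A match describes these letters only, and binding was not measured.

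KO against WT asked whether loss of ARSL shifts the autophagy programme, and 0 of 34 members passed the limma test at an adjusted p under 0.05, where 96 of 8431 tested genes did, 1.14%. At that share, calls in a set of 34 genes would be few. By limma-voom on the recovered reads the count was also 0, with 1.04% of all genes called. At an unadjusted p under 0.05 there was 1 member, Ulk2, and 13.5% of all genes. Differences were above 0 for 15 members and below 0 for 19, from -0.24 to 0.19 on the log2-like scale. Their median was -0.02, and that of all tested genes was 0.01.

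The precision of these comparisons differed with the number of reads. On the log2-like scale the 95% interval of the difference stayed within 0.5 of 0 for all 34 members, but that scale understates the fold of weakly expressed genes. On the fold scale of limma-voom, the 95% interval lay within 1.5-fold in either direction for 24 members and within 2-fold for 30. The 4 with wider intervals were Ulk2, Wipi2, Atg14 and Atg4b, each with under 20 reads in at least 1 library. In data simulated without shifts shared between genes, 31.6% of genes changed by 1.5-fold and 76.7% of those changed by 2-fold were called. Changes of 1.5-fold would mostly be missed in such data at this size, and the shares in the real data may differ.

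**Figure D3:**
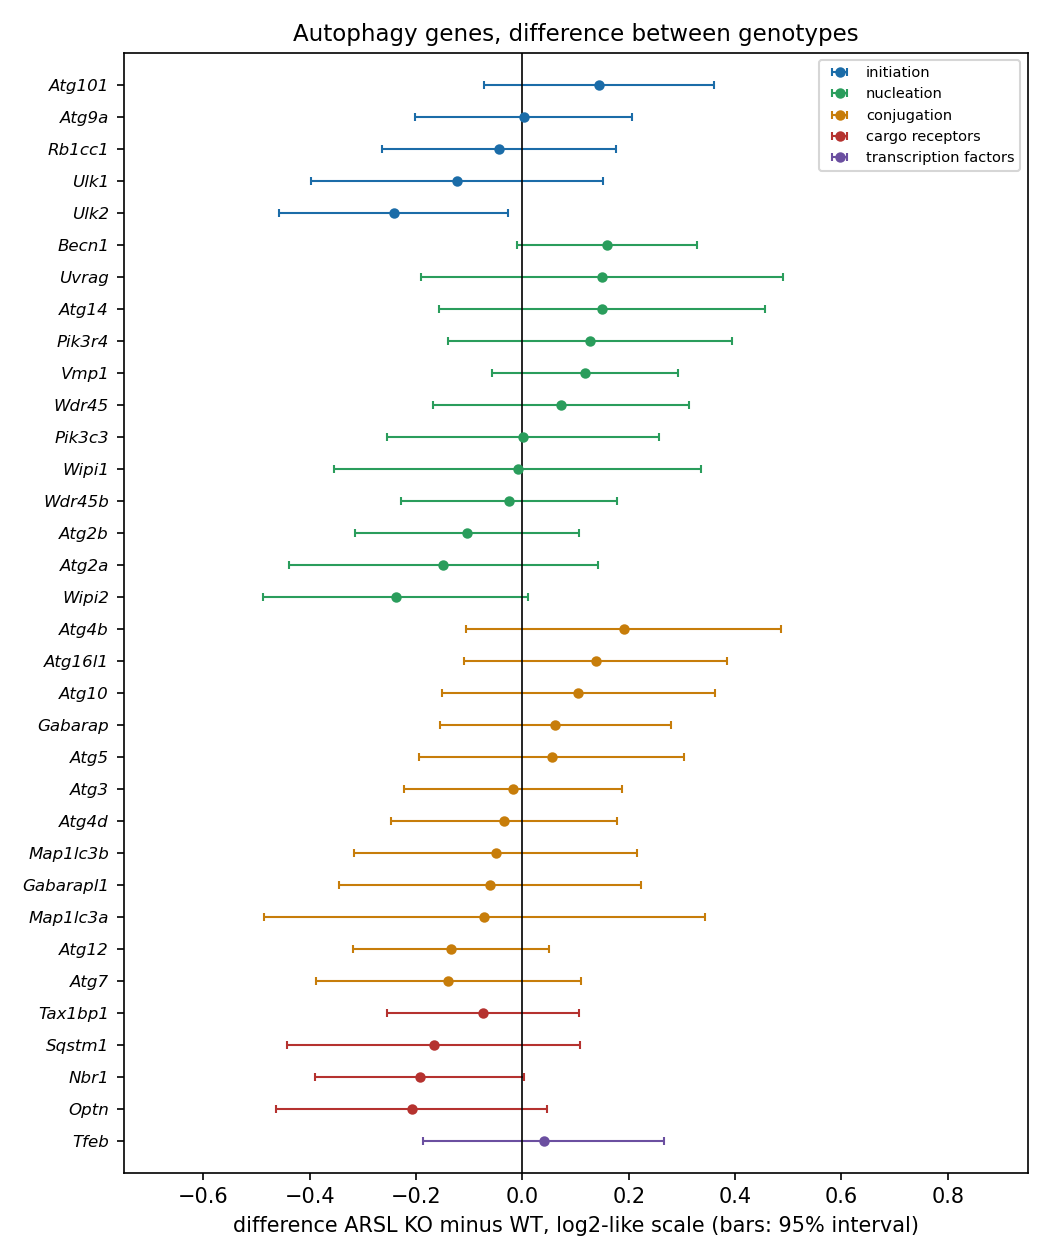
Difference KO minus WT on the log2-like scale (x) for the 34 autophagy genes (y), coloured by step, with 95% intervals from limma over 5 libraries per group. The interval of Ulk2, -0.46 to -0.03, is the 1 that does not include 0, and its adjusted p is 0.306.

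Among the 5 initiation genes with a row, 0 were called, 2 differences were above 0 and 3 below, and the median was -0.04. Ulk2, a kinase that starts autophagy alongside its paralogue Ulk1, had 22.7, 28.1, 21.9, 25.8 and 30.7 normalised reads in WT and 18.3, 18.5, 12, 22.4 and 17.9 in KO. The KO libraries were lower except ARSL KO 4, which exceeded WT 3. Ulk2 (ENSRNOG00000002763) averaged 25.8 ± 3.67 (WT) against 17.8 ± 3.74 (KO) normalised reads (mean ± SD of 5 libraries each). The difference was -0.24 ± 0.101 (SE; limma adjusted p = 0.306). Its limma-voom fold was 0.687, with a 95% interval of 0.49 to 0.962. Ulk1 had 84.5, 118, 132, 165 and 110 normalised reads in WT and 113, 119, 119, 98.6 and 87.9 in KO, with WT 3 and WT 4 highest and a limma-voom fold of 0.897 (0.696 to 1.16).

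Atg101, a stabilizing subunit of the ULK1 complex, had 181, 152, 177, 183 and 171 normalised reads in WT and 201, 193, 246, 168 and 174 in KO, and the groups overlapped. Its difference was 0.14 ± 0.101 (SE; limma adjusted p = 0.552). Rb1cc1, the scaffold FIP200, was the initiation gene with the most reads, with 333, 299, 365, 357 and 305 in WT and 313, 351, 251, 357 and 337 in KO. The groups overlapped, and the difference was -0.04 ± 0.103 (SE; limma adjusted p = 0.881). Atg9a, a lipid scramblase carried on vesicles, averaged 199 ± 26.1 (WT) against 199 ± 11.2 (KO) normalised reads (mean ± SD of 5 libraries each), with a limma-voom interval of 0.845 to 1.19-fold.

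The 12 genes of nucleation and membrane expansion held 0 calls, with 7 differences above 0 and 5 below and a median of 0.04. Becn1, the scaffold of the phosphatidylinositol 3-kinase complexes, had 594, 649, 593, 597 and 643 normalised reads in WT and 674, 681, 747, 694 and 662 in KO. Every KO library lay above every WT library, which held for 1 member of 34 and, in either direction, for 4.26% of all tested genes. Becn1 (ENSRNOG00000020513) averaged 615 ± 28.3 (WT) against 692 ± 33 (KO) normalised reads (mean ± SD of 5 libraries each), 1.12-fold. The difference was 0.16 ± 0.079 (SE; limma adjusted p = 0.401). The limma-voom interval was 0.993 to 1.27-fold.

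The other subunits of that kinase were read less deeply. Pik3c3, the catalytic subunit VPS34, averaged 24.6 ± 6.81 (WT) against 24.5 ± 5.71 (KO) normalised reads (mean ± SD of 5 libraries each), with a limma-voom interval of 0.677 to 1.45-fold. Pik3r4, its regulatory subunit, had 52.3, 41.6, 75.5, 63.1 and 37 in WT and 63.3, 66.3, 60, 48.8 and 65.5 in KO. Atg14, which directs the complex to autophagosome formation, had 18.3, 9.68, 26.3, 31.5 and 24.3 in WT and 33.3, 26.1, 31.4, 14.6 and 29.6 in KO. Both were high in WT 3 and WT 4 and lowest of the KO libraries in ARSL KO 4. Uvrag, which pairs with Beclin 1 in a separate complex, averaged 34.8 ± 17.4 (WT) against 39.9 ± 7.23 (KO) normalised reads (mean ± SD of 5 libraries each).

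Of the proteins that read phosphatidylinositol 3-phosphate, Wipi2, which recruits the conjugation machinery, had the smallest p of this step. It had 21.8, 30, 20.8, 24.9 and 34.9 normalised reads in WT and 15, 25, 15.7, 12.7 and 24.2 in KO. ARSL KO 2 and 5 lay within the WT range and the other 3 below it. The difference was -0.24 ± 0.117 (SE; limma adjusted p = 0.396), and the limma-voom interval 0.477 to 1.02-fold. Wipi1 and its relatives Wdr45 and Wdr45b differed by -0.01, 0.07 and -0.02 on the log2-like scale. The lipid transfer proteins Atg2a and Atg2b differed by -0.15 and -0.10, and the scramblase Vmp1 by 0.12, with limma adjusted p-values of 0.654, 0.666 and 0.548.

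Conjugation was represented by 12 genes, of which 0 were called, with 5 differences above 0, 7 below and a median of -0.03. Map1lc3a averaged 383 ± 137 (WT) against 351 ± 77.1 (KO) normalised reads, and Map1lc3b 120 ± 27.3 against 113 ± 15.8 (mean ± SD of 5 libraries each). Gabarap averaged 272 ± 37.3 (WT) against 285 ± 26.3 (KO) normalised reads, and Gabarapl1 276 ± 55.1 against 261 ± 41.3 (mean ± SD of 5 libraries each). These 4 had limma adjusted p-values of 0.817 to 0.899 and limma-voom intervals from 0.69 to 1.31-fold. RefSeq lists pseudogenes named after Map1lc3b, Gabarap, Sqstm1, Vmp1 and Atg4b, and the treatment of reads shared with such copies in the authors' counting is not given here, so these levels are uncertain.

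Among the enzymes of conjugation, Atg12, the ubiquitin-like protein joined to Atg5, had the smallest p. It had 105, 107, 97.4, 120 and 112 normalised reads in WT and 93.4, 90.1, 104, 98.6 and 91.5 in KO, and WT 3 lay inside the KO range. The difference was -0.13 ± 0.086 (SE; limma adjusted p = 0.518). Atg4b, a cysteine protease of the pathway, had 27.9, 21.3, 7.66, 14.3 and 14.8 in WT and 29, 27.2, 15.7, 16.6 and 25.1 in KO. WT 3, WT 4 and WT 5 were low, WT 1 and WT 2 lay within the KO range, and the limma-voom interval was 0.827 to 2.17-fold.

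The remaining enzymes also spread on both sides of 0. Atg16l1, which places the Atg12-Atg5 conjugate on membrane, averaged 103 ± 21.8 (WT) against 116 ± 10.7 (KO) normalised reads (mean ± SD of 5 libraries each), with a difference of 0.14. Atg7, the activating enzyme of both conjugation systems, averaged 88.6 ± 12.9 (WT) against 77.7 ± 16.4 (KO) normalised reads (mean ± SD of 5 libraries each), a difference of -0.14. Atg10 and Atg3, both conjugating enzymes, differed by 0.11 and -0.02. Atg5 differed by 0.05 and the protease Atg4d by -0.04, with limma adjusted p-values of 0.869 and 0.9.

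The 4 cargo receptors with a row all had differences below 0, with a median of -0.18, and 0 were called. Nbr1, a ubiquitin-binding receptor, had 303, 300, 342, 379 and 316 normalised reads in WT and 276, 315, 262, 296 and 259 in KO. Of the KO libraries, ARSL KO 2 reached the WT range. Its difference was -0.19 ± 0.092 (SE; limma adjusted p = 0.379). Optn, which encodes optineurin, had 31.4, 26.1, 40.5, 43 and 43.3 in WT and 26.8, 30.4, 38.8, 25.4 and 18.8 in KO, with overlap and a difference of -0.21 ± 0.119 (SE; limma adjusted p = 0.472).

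Tax1bp1, a receptor that also binds ubiquitin, was the receptor with the most reads, with 643, 622, 652, 654 and 620 in WT and 551, 691, 586, 626 and 578 in KO. WT varied little and KO spanned its range on both sides, with a difference of -0.07 ± 0.084 (SE; limma adjusted p = 0.722). Sqstm1 averaged 432 ± 98.4 (WT) against 373 ± 23.5 (KO) normalised reads (mean ± SD of 5 libraries each), a difference of -0.17 ± 0.129 (SE; limma adjusted p = 0.59). Tfeb, a regulator of lysosomal and autophagy genes, had 36.6, 22.3, 23, 32.5 and 37 normalised reads in WT and 34.4, 30.4, 35.1, 28.3 and 29.6 in KO. The KO values lay within the WT range, with a difference of 0.04 ± 0.106 (SE; limma adjusted p = 0.896).

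Without WT 3, WT 4 and ARSL KO 4, 0 of 34 members passed and 3.56% of all tested genes did. The median difference of the members was then 0.06, and 21 of 34 were above 0. Sqstm1 went from -0.17 to 0.00, with a limma-voom fold of 0.884 over all libraries, and Map1lc3a went from -0.07 to 0.15. Atg14 and Pik3r4 stood at 0.38 and 0.34, at 1.73-fold and 1.46-fold in normalised reads (limma unadjusted p = 0.0108 and 0.00888, adjusted p = 0.139 and 0.126). For both, the libraries left out held the highest WT values and the lowest KO value, so leaving them out could only raise the difference. Those libraries were picked from these same data. Ulk2 stood at -0.32 (limma adjusted p = 0.22). The receptors had a median of -0.09 in these 7 libraries. The part of those 3 libraries in the members' differences was not tested beyond leaving them out.

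**Figure D4:**
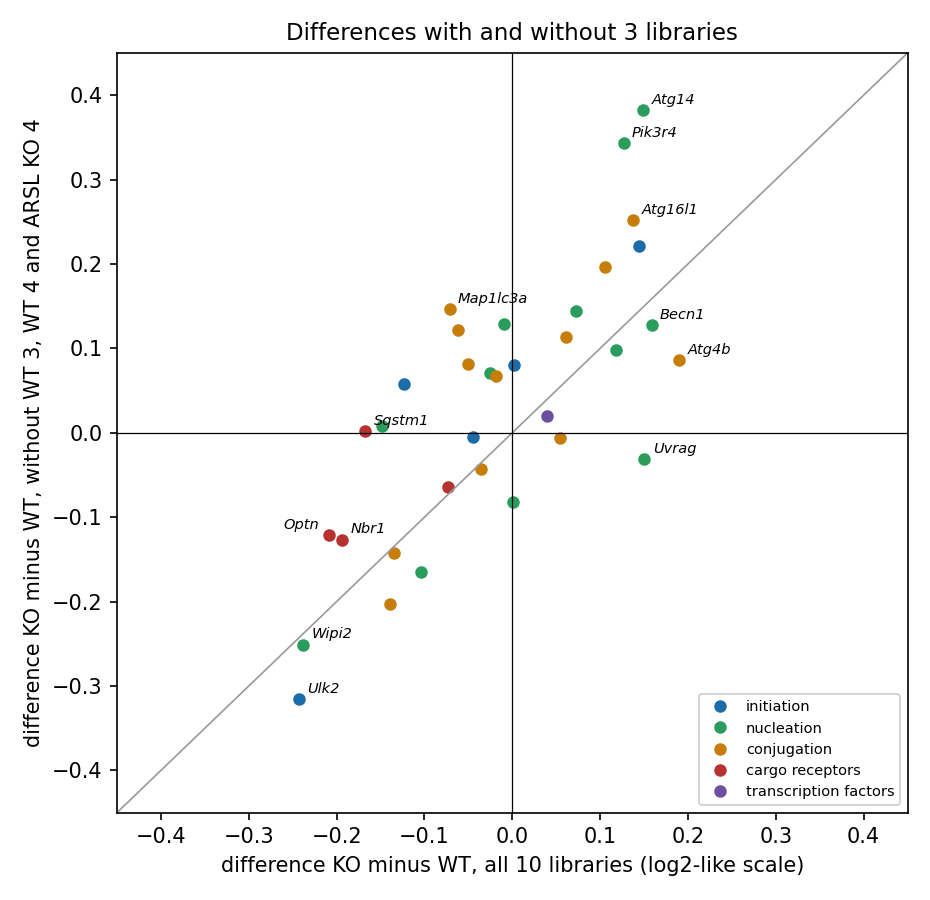
Difference KO minus WT on the log2-like scale with all 10 libraries (x) and without WT 3, WT 4 and ARSL KO 4 (y), 1 point per autophagy gene, coloured by step; the grey line marks equal values. Map1lc3a moves from -0.07 to 0.15 and Sqstm1 from -0.17 to 0.00, while Ulk2 stays below -0.2 and Becn1 above 0.1 on both axes.

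Other genes of the pathway, from 3 lists chosen with earlier results known, held 0 calls among 48 tested genes, with 20 differences above 0, 28 below and a median of -0.03. In 18 upstream regulators the smallest p was that of Bcl2l1, whose product BCL-XL binds Beclin 1. It averaged 33.5 ± 6.67 (WT) against 49.6 ± 8.58 (KO) normalised reads (mean ± SD of 5 libraries each), with a difference of 0.32 ± 0.11 (SE; limma adjusted p = 0.204). In 11 fusion genes it was that of Ykt6, a SNARE of autophagosome fusion, with 26.9 ± 13.6 (WT) against 46.9 ± 14.9 (KO) normalised reads (mean ± SD of 5 libraries each; limma adjusted p = 0.246). In 19 other receptors and machinery genes it was that of Ccpg1, an endoplasmic reticulum receptor, with 46 ± 10.6 (WT) against 32 ± 8.17 (KO) normalised reads (mean ± SD of 5 libraries each; limma adjusted p = 0.306). WT 3 and WT 4 both lay below the other WT libraries for Bcl2l1 and Ykt6, and above them for Ccpg1. Without WT 3, WT 4 and ARSL KO 4, Bcl2l1 went from 0.32 to 0.17, Ykt6 from 0.46 to 0.28 and Ccpg1 from -0.29 to -0.23. Their limma adjusted p-values were then 0.579, 0.35 and 0.401. Of 25 lysosomal genes, 24 did not pass and 1 did, Manba, a mannosidase, with a difference of -0.85 (limma adjusted p = 0.0277). No lysosomal gene was called when WT 3, WT 4, ARSL KO 1, ARSL KO 2, ARSL KO 3 or ARSL KO 5 was left out. The count was 2 with the replicate block, with array quality weights and without ARSL KO 4, and 3 without WT 3, WT 4 and ARSL KO 4 together, where Manba had a limma adjusted p of 0.0086.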

How the data were processed

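The submitters' processing notes name bcl2fastq, the aligner STAR (2.7.11a), the counter HTSeq and the genome build rn6. The authors deposited variance-stabilized, log2-like values normalized for library size; the tool, the gene filter and the use of strand were not given in these sources. Inverting the closed form of that transformation gave whole reads for 100% of values within 1e-06 reads. Normalised reads are these divided by the library's size factor. The difference between genotypes was fitted for 8431 genes on the log2-like values in limma (3.58.1, R 4.3.3). Variances followed an intensity trend, tests were two-sided and p-values were adjusted by Benjamini-Hochberg. The fit was tested on simulated data with the real means, where 4.5% of calls were false. Each gene was drawn separately, so shifts shared between genes, such as that of WT 3, WT 4 and ARSL KO 4, were not simulated. The share of false calls in the real data may differ. Alternatives changed the filter, scaling, variance model, replicate block, scale (limma-voom) and libraries.

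Members and lists were chosen with earlier results of these data known. Every member with a row was named. Values in every library were given for the 2 smallest p-values and the most reads in each step, and for Sqstm1, Map1lc3b, Ulk2 and Becn1. From other lists, calls or the smallest p were named. Ulk1, Wipi1, Uvrag, Pik3r4 and Atg14 got fuller values after these were seen. Figures used matplotlib 3.10.9.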

Additional observations from a re-analysis of the deposited data

How the results depend on the processing

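Over 20 alternative settings, 0 of 34 autophagy genes and 0 genes of the 3 other pathway lists were called, and the smallest member adjusted p (limma) was 0.126, that of Pik3r4 without WT 3, WT 4 and ARSL KO 4. The stricter filter kept 23 of the 34. The count over all tested genes, 96, was 60 with the stricter filter, 219 with array quality weights, 300 without WT 3, WT 4 and ARSL KO 4, and 33 to 101 with 1 library left out. Leaving out WT 3 gave 62, and leaving out ARSL KO 1, 2, 3 or 5 gave 53, 37, 33 and 37. Replicate numbers were shared by the genotypes, and same-numbered libraries correlated above 0.1 in 2 of 5 pairs. These were number 4, at 0.59, and number 5, at 0.26, and in both the same-numbered KO library was the best partner. The correlations used values centred within each genotype, so they cannot settle whether the cultures were paired. The main fit treated the libraries as unpaired. With the replicate block, 136 genes and 0 members were called, and Ulk2 had an adjusted p of 0.314.

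The difference kept its sign in every setting for 18 members and changed it in some setting for 16, none of them called. The cause was not tested. Without WT 3, WT 4 and ARSL KO 4 the differences were 0.058 for Ulk1, -0.082 for Pik3c3, -0.031 for Uvrag, 0.13 for Wipi1, 0.071 for Wdr45b, 0.0079 for Atg2a, 0.15 for Map1lc3a, 0.082 for Map1lc3b, 0.12 for Gabarapl1, 0.067 for Atg3, -0.0064 for Atg5 and 0.0016 for Sqstm1. With array quality weights they were 0.010 for Ulk1, -0.043 for Pik3c3, 0.12 for Wipi1, 0.030 for Wdr45b, 0.13 for Map1lc3a, 0.067 for Map1lc3b, 0.096 for Gabarapl1 and 0.050 for Atg3. Atg9a was at -0.010 after quantile normalization and Pik3c3 at -0.015 with limma-voom. With 1 library left out, differences ranged from -0.080 to 0.032 for Rb1cc1, -0.062 to 0.048 for Atg9a, -0.069 to 0.059 for Pik3c3, -0.11 to 0.12 for Wipi1, -0.081 to 0.030 for Wdr45b, -0.19 to 0.054 for Map1lc3a, -0.12 to 0.034 for Map1lc3b, -0.14 to 0.0034 for Gabarapl1, -0.068 to 0.035 for Atg3, -0.081 to 0.013 for Atg4d and -0.011 to 0.081 for Tfeb. Depth limits the weakly read members: 9 had under 20 reads in at least 1 library.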

Other observations

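The transcription factor Mitf, a relative of Tfeb, had 27, 39.7, 63.5, 63.1 and 58.1 normalised reads in WT and 26.8, 34.8, 28.6, 36.1 and 26.9 in KO. WT 1 lay within the KO range and the other WT libraries above it. Mitf differed by -0.38 ± 0.137 (SE; limma adjusted p = 0.231), and by -0.25 without WT 3, WT 4 and ARSL KO 4 (limma adjusted p = 0.41). It was named after its values were seen. Of 68 sets of 5 values, 34 members in each genotype, 0 had a library far from the other 4 by Dixon's test at a gap over 0.71 of the range; chance gives about 1 in 20.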
